A study of Bos taurus with 12 samples.

Results

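The genes described here are SLC2A1, the gene of the glucose transporter GLUT1, and 6 genes of glycolysis, ALDOA, GAPDH, PGK1, ENO1, PKM and LDHA, measured in the bovine corpus luteum with 1-colour arrays. They were chosen by name: every non-control probe was taken whose gene name, or the symbol in its accession text or description, is one of these 7 genes. The rule found 105 of the 15208 probes and 5 of the 7 genes, among 6697 genes with a symbol on the array. SLC2A1, PGK1, ENO1 and LDHA have 1 probe each, GAPDH has 101 probes, and no probe was matched to ALDOA or PKM, so those 2 genes are not described further.

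The corpora lutea came from Japanese Black cows in 3 groups of 4 animals. The P18 cows were on day 18 of gestation, the P15 cows on day 15 of gestation, and the NP15 cows on day 15 of the estrous cycle without pregnancy, where day 1 is that of the artificial insemination. The glands were taken 10 to 30 min after exsanguination. P18 and P15 differ in day, P15 and NP15 differ in pregnancy, and P18 and NP15 differ in both.

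Glycolysis breaks glucose down to pyruvate in the cytosol and yields ATP without oxygen, and lactate dehydrogenase turns the pyruvate into lactate when it is not oxidised in the mitochondria. GLUT1 carries glucose across the plasma membrane. The corpus luteum is the vascular gland that forms in the ovary after ovulation and secretes progesterone, which maintains pregnancy. GAPDH is also one of the genes that laboratories use most often to scale expression measurements.

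The probes of this array are DNA strands of 60 bases. The GAPDH probes are shown because the results below turn on them. Of the probes matched to a RefSeq transcript accession, those of SLC2A1, ENO1 and LDHA, only the ENO1 probe is shown. The following 3 sequences are those of the GAPDH and ENO1 probes. They are written 5′ to 3′ as the array files give them, in lower case throughout because no base is singled out.
repeated GAPDH probe: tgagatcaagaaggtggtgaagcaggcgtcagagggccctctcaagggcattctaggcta
single GAPDH probe: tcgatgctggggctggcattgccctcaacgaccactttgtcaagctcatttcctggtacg
ENO1 probe: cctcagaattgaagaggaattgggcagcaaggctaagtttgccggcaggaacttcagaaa
The first sequence was spotted 100 times, at 100 places between row 1 and row 192 of the array, and the second was spotted 1 time, in row 1. The 105 probes therefore hold 6 different sequences. The probes of SLC2A1, ENO1 and LDHA were tied to their genes by RefSeq accession, and those of GAPDH and PGK1 by the symbol in the array files alone. The probe named PGK1 was designed from an expressed sequence tag, and its sequence was not matched to a transcript here.

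All values below are log2 signals over the array's own 75th percentile, so that a difference of 0 means the same signal relative to that percentile. The percentile lay at 3000 to 3558 intensity units on the P18 arrays, 2649 to 3773 on the P15 arrays and 2868 to 4183 on the NP15 arrays. All 13 luteal markers listed for the tissue, among them STAR, CYP11A1 and HSD3B1, were well above background on all 12 arrays. The 4 P18 arrays shared 1 slide and 1 scan, and the 8 P15 and NP15 arrays shared another, with P15 in the second slide row and NP15 in the first, so slide and group cannot be told apart for P18, nor slide row and group for P15 and NP15. Probes well above background made up 67.5 to 72.6% on the P18 arrays, 75.3 to 80.5% on the P15 arrays and 79.6 to 85.6% on the NP15 arrays, and the median net signal of the negative controls was 77.3 to 92.9, 31.7 to 36.3 and 34.6 to 38.7 intensity units in the same groups. Their part in the results was not tested. At an adjusted p under 0.05 in limma, 29% of the 12605 kept probes were called in P18 against P15 (13.5% higher and 15.6% lower), 29.9% in P18 against NP15 (11.2% higher and 18.7% lower) and 0.976% in P15 against NP15 (0.397% higher and 0.579% lower). Scaling the arrays to their median instead moved the median change of all probes to 0.20 in P18 against P15, compared with -0.03 here, and to 0.18 in P18 against NP15, compared with -0.06 here. Of the called probes, 46.4% were higher in P18 than in P15 and 37.4% were higher in P18 than in NP15. With median scaling these shares were 73.2% and 68.2%, and with the normexp background correction 61.6% and 56.7%.

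GAPDH, the enzyme that oxidises glyceraldehyde 3-phosphate, was higher in P18 than in both day 15 groups by both sequences that the naming rule found. A further probe, which has only the older symbol GAPD, was not called (0.21 against P15, adjusted p = 0.285, and 0.03 against NP15, adjusted p = 0.894). The mean of the 100 repeated spots was 2.41, 2.51, 2.45 and 2.30 on the P18 arrays, against 1.67, 1.79, 1.59 and 1.67 on the P15 arrays. On the NP15 arrays it was 1.72, 1.72, 1.69 and 1.45. All 4 P18 arrays lay above all 8 others, and the P15 and NP15 arrays overlapped. With the 100 spots averaged before the fit, an alternative chosen after the data were seen, the P18 level was 1.67-fold that of P15 (log2 change 0.74, SE 0.10, adjusted p = 0.000393). It was 1.70-fold that of NP15 (log2 change 0.77, SE 0.10, adjusted p = 0.000295). P15 and NP15 differed by 0.03 (SE 0.10, adjusted p = 0.946).

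The single GAPDH probe gave 4.84, 4.81, 4.86 and 4.76 on the P18 arrays, against 4.46, 4.55, 4.34 and 4.44 on the P15 arrays and 4.07, 4.00, 4.14 and 4.34 on the NP15 arrays. The P18 arrays were again above all others, and 3 of the 4 P15 arrays were above all NP15 arrays. The P18 level was 1.29-fold that of P15 (log2 change 0.37, SE 0.10, adjusted p = 0.0159) and 1.60-fold that of NP15 (log2 change 0.67, SE 0.10, adjusted p = 0.000525). The P15 level was 0.31 above that of NP15 (SE 0.10), which was not called (adjusted p = 0.280). The 2 GAPDH sequences thus gave different sizes for P18 against P15, 0.74 for the repeated spots and 0.37 for the single probe. The single probe lies in row 1, where the median change of the 62 kept probes was -0.12 in P18 against P15, 0.31 in P18 against NP15 and 0.47 in P15 against NP15. Centred within rows, the single probe was 0.52 higher in P18 than in P15 (adjusted p = 0.00119) and 0.32 higher in P18 than in NP15 (adjusted p = 0.0161). Its change in P15 against NP15 was then -0.20 (adjusted p = 0.877), so the sign of this uncalled change turned with the correction for position.

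**Figure D1:**
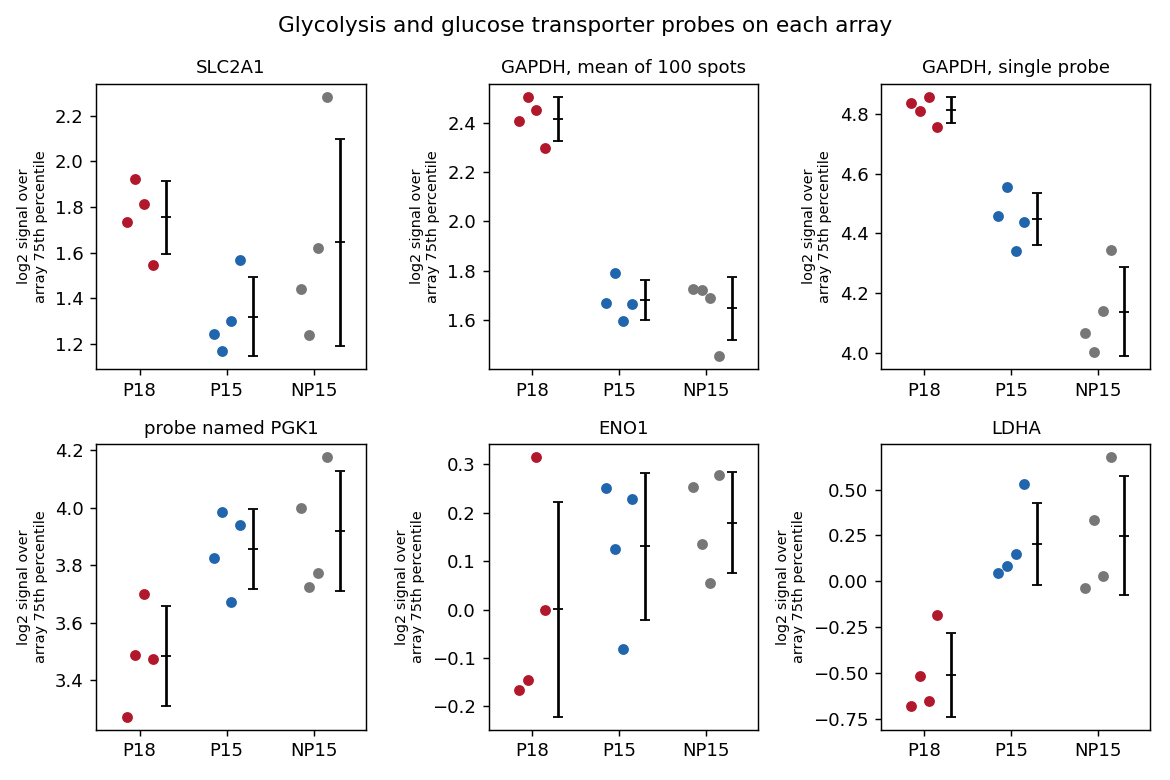
Log2 signal over the array's 75th percentile (vertical axes, each panel with its own range) of SLC2A1, the 2 GAPDH sequences, the probe named PGK1, ENO1 and LDHA on the 4 P18, 4 P15 and 4 NP15 arrays; points are arrays and the black bar beside them is the mean ± SD. Both GAPDH panels have all P18 arrays above the rest, and the LDHA panel has all P18 arrays below the rest.

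The 100 identical spots showed how far 1 sequence varies over 1 array. The SD over the spots was 0.08 to 0.33 on the P18 arrays, 0.17 to 0.18 on the P15 arrays and 0.17 to 0.37 on the NP15 arrays. In linear signal the coefficient of variation was 5.37 to 12.4% on the P18 arrays, 10.9 to 12.3% on the P15 arrays and 11.1 to 18.6% on the NP15 arrays. The ratio of the brightest to the dimmest of the 100 spots was between 1.27 and 9.88 on the P18 arrays, between 1.86 and 2.33 on the P15 arrays and between 1.98 and 4.08 on the NP15 arrays. These spots share their RNA and their array, so they are not replicates of a condition.

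The ends of the array carried an opposite offset in the 2 day 15 groups. The 16 spots of rows 1 to 24 minus the 12 spots of rows 169 to 192 averaged 0.16 to 0.19 on the P15 arrays, against -0.25 to -0.20 on the NP15 arrays. On the P18 arrays this difference was 0.29, 0.07, 0.25 and -0.07. The values of P18 arrays 1 and 3 rest largely on a single spot in row 185. That spot read -0.69 and 0.02 on these arrays, beside array medians of 2.45 and 2.49. The dimmest spot lay in row 192 on all 4 P15 arrays, and in row 1 on 3 of the 4 NP15 arrays. On the P18 arrays it lay in row 185, 189, 185 and 159.

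**Figure D2:**
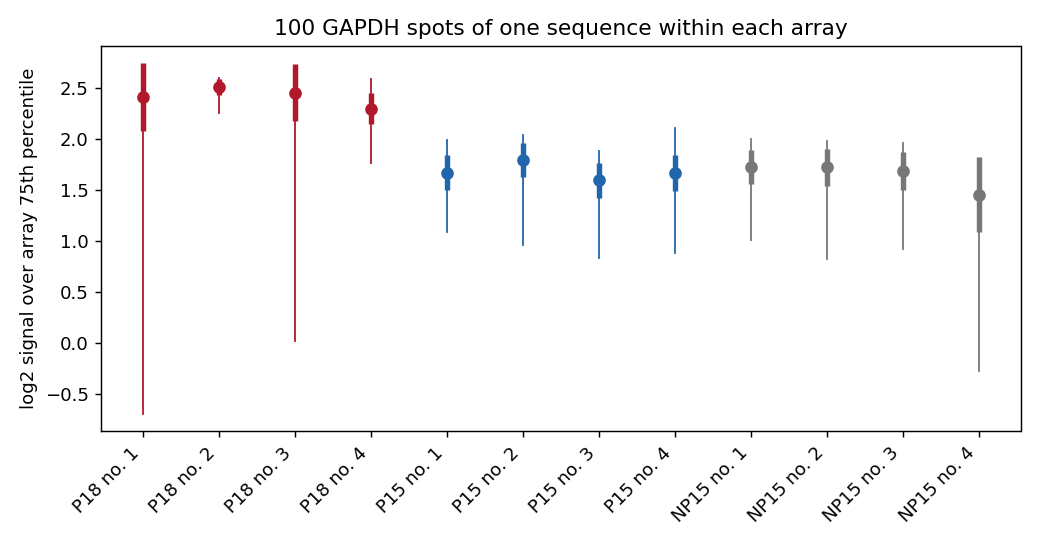
Level of the 100 GAPDH spots of one sequence on each of the 12 arrays, as log2 signal over the array's 75th percentile; the point is the mean over spots, the thick bar ± 1 SD and the thin line the range from the lowest to the highest spot. The P18 means lie between 2.30 and 2.51, above all P15 and NP15 means, and P18 array 1, P18 array 3 and NP15 array 4 hold 1, 2 and 12 spots more than 0.5 below the array's median.

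Each spot was also tested by itself. In P18 against P15, 93 of the 100 spots were called, all higher in P18, and 99 of 100 had arrays that did not overlap between the groups, where the background was 29% called and 35.2% without overlap. In P18 against NP15, 98 of 100 were called, all higher in P18, and 99 of 100 did not overlap, with a background of 29.9% and 30.9%. The spots measure the same RNA, so these counts describe how evenly 1 difference was seen over the array. The mean change in P18 against P15 was 0.72 in rows 1 to 24, 0.74 in rows 25 to 168 and 0.75 in rows 169 to 192. The mean change in P18 against NP15 was 0.88, 0.79 and 0.52 in these bands. The last band holds the spot of row 185, at -0.40 against P15 and -0.63 against NP15, which lowers both of its means. Against P15 the SD over the spots of the last band was 0.40, beside 0.03 and 0.07 in the other bands. In rows 188 to 192 the spots changed by 0.93, 0.84, 0.94 and 1.33 against P15. Against NP15 they changed by 0.64, 0.53, 0.51 and 0.56.

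A single spot in row 185 went the other way, at -0.40 in P18 against P15 (adjusted p = 0.647). It read -0.69, 2.29, 0.02 and 2.29 on the P18 arrays, against 1.48, 1.40, 1.29 and 1.33 on the P15 arrays. The low values on P18 arrays 1 and 3 were not marked as outliers by the scanner software. The other 6 spots not called in P18 against P15 lay in rows 93 to 122, with changes of 0.56 to 0.62.

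In P15 against NP15, 2 of the 100 spots were called, with a background of 0.976%, and 11 did not overlap between the groups, with a background of 6.54%. They were the spot in row 1 and the spot in row 192, and they moved in opposite directions. The row 1 spot read 1.57, 1.76, 1.52 and 1.61 on the P15 arrays, against 1.00, 0.82, 0.92 and 0.77 on the NP15 arrays (log2 change 0.74, SE 0.10, adjusted p = 0.00315). The row 192 spot read 1.09, 0.96, 0.84 and 0.88 on the P15 arrays, against 1.71, 1.69, 1.71 and 1.76 on the NP15 arrays (log2 change -0.78, SE 0.09, adjusted p = 0.00101). The same 60 bases were thus called higher in P15 at one edge of the array and lower at the other. Over the bands, the spots changed by 0.16 in rows 1 to 24, by 0.05 in rows 25 to 168 and by -0.23 in rows 169 to 192, beside a median of 0.08, -0.05 and -0.25 over the other kept probes in the same rows. After centring within rows, 0 of the 100 spots were called in limma, and 0 had an unadjusted p under 0.05.

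**Figure D3:**
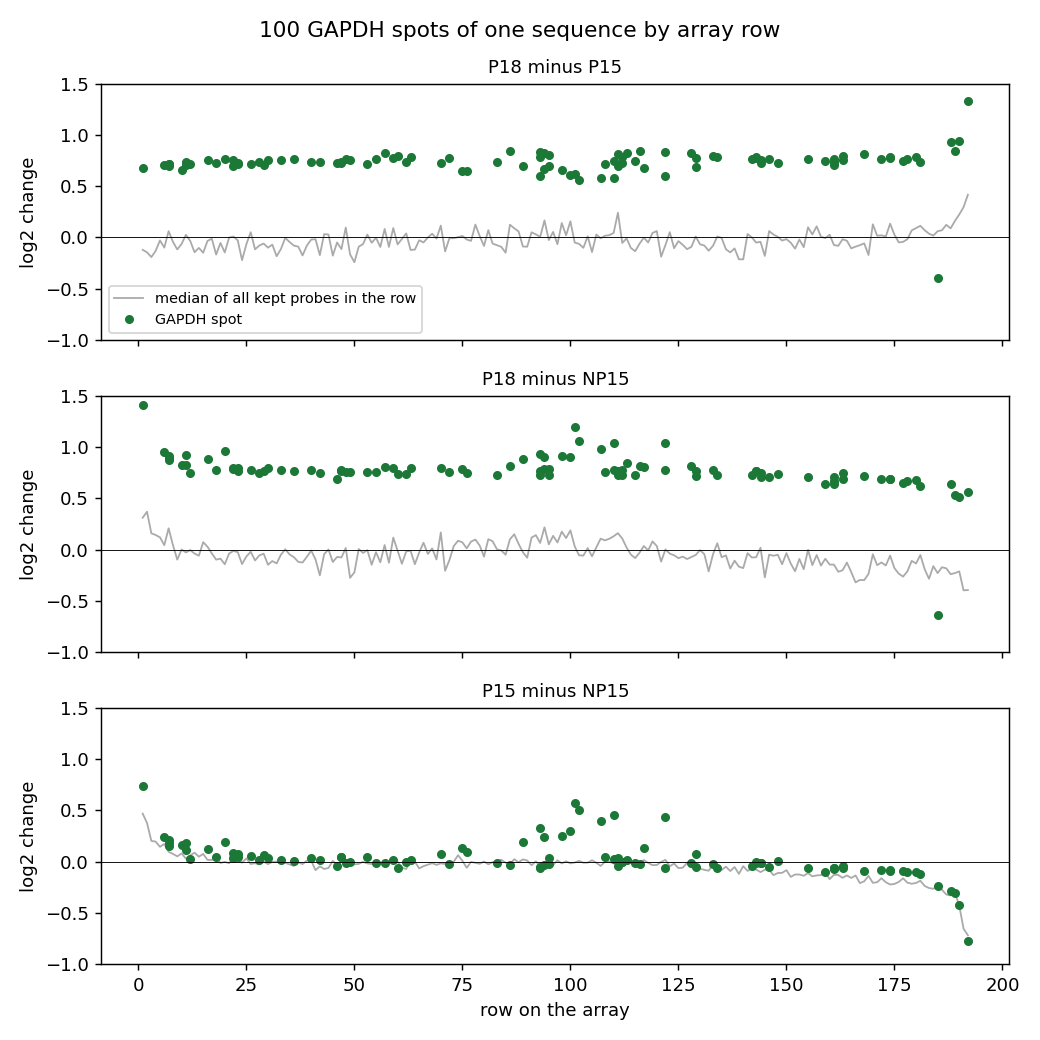
Log2 change of each of the 100 GAPDH spots of one sequence (points) against its row on the array, beside the median log2 change of all kept probes in each row (grey line), for P18 minus P15, P18 minus NP15 and P15 minus NP15. In both P18 comparisons 99 of the 100 spots lie above 0, with means of 0.74 and 0.77, and the spot in row 185 lies below it. In P15 minus NP15 the spots run from 0.74 in row 1 to -0.78 in row 192 beside the row medians, with some spots of the inner rows above them, up to 0.57.

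SLC2A1, which brings glucose into the cell, was not called in any comparison. It read 1.73, 1.92, 1.81 and 1.55 on the P18 arrays, against 1.24, 1.17, 1.30 and 1.57 on the P15 arrays. On the NP15 arrays it read 1.44, 1.24, 1.62 and 2.28, the widest spread of the 3 groups. The group order was P18, NP15, P15, at 1.75 ± 0.16, 1.65 ± 0.45 and 1.32 ± 0.17 (SD, n = 4 each), and no neighbours in this order were told apart. The P18 level was 0.44 above that of P15 (SE 0.20, adjusted p = 0.130), with 3 of 4 P18 arrays above all P15 arrays. That difference was called without NP15 array 4, which enters it only through the pooled spread (adjusted p = 0.0219), with median scaling (0.66, adjusted p = 0.0301) and with centring within rows (0.55, adjusted p = 0.0284). P18 and NP15 differed by 0.11 (SE 0.20, adjusted p = 0.720), and P15 was 0.33 below NP15 (SE 0.20, adjusted p = 0.734).

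The probe named PGK1, for the kinase that makes the first ATP of glycolysis, read 3.27, 3.49, 3.70 and 3.48 on the P18 arrays. It read 3.83, 3.98, 3.67 and 3.94 on the P15 arrays and 4.00, 3.73, 3.77 and 4.18 on the NP15 arrays. It fell in P18 against NP15, with no overlap (log2 change -0.43, SE 0.13, adjusted p = 0.0302). It was 0.37 lower in P18 than in P15 (SE 0.13), which was not called (adjusted p = 0.0570), and 1 P18 array lay inside the P15 range. P15 and NP15 differed by -0.06 (SE 0.13, adjusted p = 0.917). The call against NP15 was lost without any 1 of NP15 arrays 1 and 4 and P18 arrays 1, 2 and 4 (adjusted p between 0.0559 and 0.0824) and with median scaling (-0.20, adjusted p = 0.323), and P18 against P15 was called without NP15 array 4 (adjusted p = 0.0305) or P18 array 3 (adjusted p = 0.0424).

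ENO1, the enolase that forms phosphoenolpyruvate, was called in no comparison. It read -0.17, -0.15, 0.31 and -0.0001 on the P18 arrays, against 0.25, 0.12, -0.08 and 0.23 on the P15 arrays and 0.25, 0.13, 0.05 and 0.28 on the NP15 arrays. The 3 groups overlapped, and P18 array 3 held the highest of the 12 values. The change was -0.13 in P18 against P15 (SE 0.13, adjusted p = 0.487), -0.18 in P18 against NP15 (SE 0.13, adjusted p = 0.322) and -0.05 in P15 against NP15 (SE 0.13, adjusted p = 0.936).

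LDHA, the lactate dehydrogenase subunit of glycolytic tissue, fell in P18 against both day 15 groups. It read -0.68, -0.51, -0.65 and -0.18 on the P18 arrays, against 0.04, 0.08, 0.15 and 0.53 on the P15 arrays. On the NP15 arrays it read -0.04, 0.33, 0.03 and 0.67. All 4 P18 arrays lay below all 8 others. The P18 level was 1.63-fold lower than in P15 (log2 change -0.71, SE 0.18, adjusted p = 0.0134) and 1.69-fold lower than in NP15 (log2 change -0.76, SE 0.18, adjusted p = 0.00945). With median scaling the change was -0.48 (adjusted p = 0.0679) against P15 and -0.52 (adjusted p = 0.0536) against NP15, so the direction held and both calls were lost. P15 and NP15 differed by -0.05 (SE 0.18, adjusted p = 0.959).

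The P18 comparisons share the P18 arrays, and the fits share 1 estimate of the spread, so their values are not independent of each other. Away from GAPDH, the row medians in P18 against P15 were -0.12 for SLC2A1 (row 27), -0.18 for LDHA (row 38), -0.11 for ENO1 (row 47) and 0.04 for PGK1 (row 119). In P18 against NP15 they were -0.11, -0.13, -0.08 and 0.08 in the same order, and in P15 against NP15 between -0.03 and 0.00093. The row median of -0.11 at ENO1 in P18 against P15 was close to the ENO1 change itself, -0.13. None of these probes was saturated, marked, or below background on any array.

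For each gene 1 or 2 named genes with the most similar profile are given, by the root mean square difference of centred log2 values over the 12 arrays, among 5995 probes with a gene symbol. For GAPDH, taken at its brighter single probe, they were SNRPD2 (0.08) and CIAO1 (0.10), whose probes lie in rows 3 and 8, near the GAPDH probe in row 1. For LDHA they were SMC3 (0.14) and SERPINB1 (0.14), for the probe named PGK1 LEO1 (0.10), for ENO1 ETF1 (0.10) and SNX3 (0.10), and for SLC2A1 D2HGDH (0.14) and TCHP (0.15). The points share arrays, slides and scans.

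Among the other glycolytic enzymes, 14 of the 16 with a probe were kept. In P18 against P15, 1 was higher and 2 were lower, where 29% of all probes were called, with a median change of -0.005 beside -0.03 over all probes. In P18 against NP15, 1 was higher and 4 were lower, where 29.9% of all probes were called, with a median of -0.28 beside -0.06. In P15 against NP15, 0 were called in limma, 2 had an unadjusted p under 0.05, and the median was -0.16 beside -0.06.

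GPI, which turns glucose 6-phosphate into fructose 6-phosphate, read -1.97, -1.87, -1.98 and -1.92 on the P18 arrays, against -1.49, -1.31, -1.51 and -1.41 on the P15 arrays and -1.27, -1.52, -1.23 and -1.06 on the NP15 arrays. The P18 arrays lay below all others. GPI fell by 0.51 against P15 (SE 0.11, adjusted p = 0.00508) and by 0.67 against NP15 (SE 0.11, adjusted p = 0.000981). PGAM1, the phosphoglycerate mutase of most tissues, fell by 0.34 against P15 (adjusted p = 0.0401) and by 0.51 against NP15 (adjusted p = 0.00573). PKLR, the pyruvate kinase known from liver and red cells, fell by 0.76 in P18 against NP15 (adjusted p = 0.0204). HKDC1, a hexokinase-like gene, was called lower there (adjusted p = 0.0259) but 0 of 4 P18 arrays had it well above background, and no fold can be given. Its NP15 mean of -7.05 lay below -5.83, the mean over the P18 arrays of the dimmest signal well above background, so its direction is uncertain. The HKDC1 call was lost with normexp (-0.10, adjusted p = 0.584), with median scaling (adjusted p = 0.0540) and without NP15 array 4 (adjusted p = 0.0541). It held with quantile scaling and with centring within rows. LDHC, the lactate dehydrogenase known from testis, was higher at a level of -5.57, -5.76, -5.25 and -4.89 on the P18 arrays, against -6.10, -6.03, -6.51 and -6.14 on the P15 arrays (log2 change 0.83, SE 0.23, adjusted p = 0.0197). With normexp the LDHC change was 0.57 (adjusted p = 0.0132). The dimmest signal well above background averaged -5.83 over the P18 arrays, which is above all P15 values of LDHC. With median scaling the median over these 14 enzymes in P18 against P15 was 0.22, only LDHC was called, and the GPI and PGAM1 calls were lost (adjusted p = 0.0729 and 0.484); against NP15, GPI was called and PGAM1 (adjusted p = 0.0934) and PKLR (adjusted p = 0.0997) were not.

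**Figure D4:**
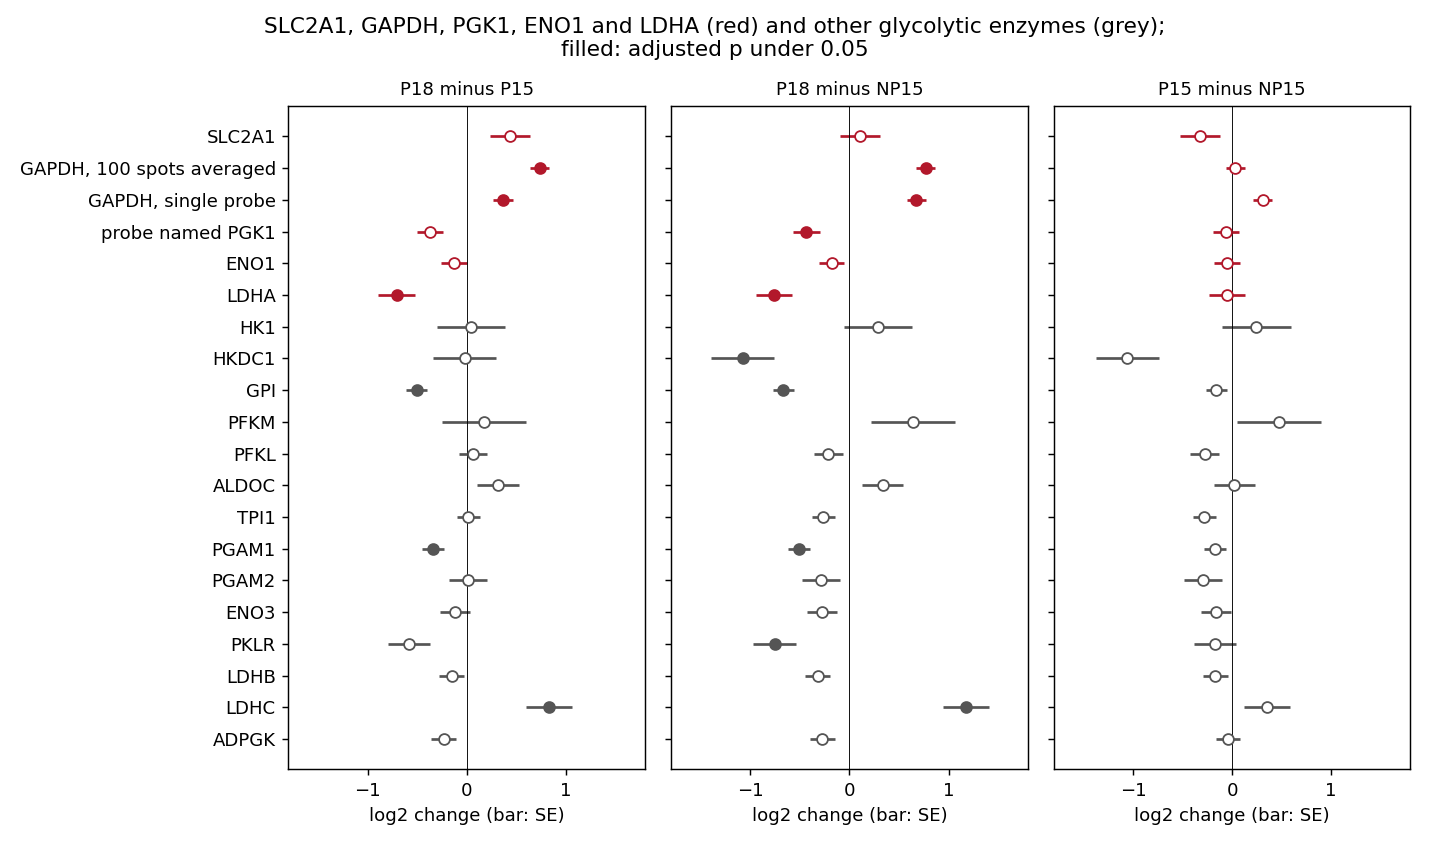
Log2 change with its SE for SLC2A1, GAPDH (100 spots averaged, and the single probe), PGK1, ENO1 and LDHA in red and for 14 other glycolytic enzymes in grey, in P18 minus P15, P18 minus NP15 and P15 minus NP15; filled points have an adjusted p under 0.05 in limma. The GAPDH points lie to the right of 0 in both P18 panels, LDHA, GPI and PGAM1 lie to the left, and no point is filled in P15 minus NP15.

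Of the other glucose transporters, 6 of 9 with a probe were kept. In P18, 1 was lower against each day 15 group, where 29% of all probes were called against P15 and 29.9% against NP15. The median change was -0.26 against P15 and -0.01 against NP15. The 1 transporter called was SLC2A3, the gene of GLUT3, with an adjusted p of 0.0133 against P15 and 0.0333 against NP15. Its probe was well above background on 0 of 4 P18, 2 of 4 P15 and 4 of 4 NP15 arrays, so no fold can be given. The SLC2A3 means of -6.53 in P15 and -6.82 in NP15 lay below -5.83, the mean over the P18 arrays of the dimmest signal well above background. The direction is therefore uncertain. Without NP15 array 4 the second call was lost (adjusted p = 0.0752), and with the normexp correction both were lost (adjusted p = 0.321 and 0.852).

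Of 12 kept regulators of glycolysis and genes that handle pyruvate and lactate, 3 rose and 2 fell in P18 against P15 (median -0.15). In P18 against NP15, 2 rose and 3 fell (median -0.21). Over all probes 29% and 29.9% were called in these 2 comparisons. PFKFB3, which makes the activator of phosphofructokinase, rose by 1.29 in P18 against P15 (SE 0.29, adjusted p = 0.00677), and by 0.66 with normexp (adjusted p = 0.00838). It was well above background on 4 of 4 P18 and 3 of 4 P15 arrays. Its P15 values of -7.36 to -6.24 lay below -5.83, the mean over the P18 arrays of the dimmest signal well above background. So did the values of -5.91 and -5.93 on P18 arrays 1 and 2, and the size of the PFKFB3 change is uncertain. MPC2, a subunit of the mitochondrial pyruvate carrier, rose by 0.54 against P15 (adjusted p = 0.00776) and by 0.60 against NP15 (adjusted p = 0.00447). PDP2, a phosphatase that activates pyruvate dehydrogenase, fell by 0.85 against P15 (adjusted p = 0.00834) and by 0.99 against NP15 (adjusted p = 0.00348), or by 0.55 and 0.63 with normexp. PDHX, a component of the pyruvate dehydrogenase complex, rose by 0.45 against P15 (adjusted p = 0.0119), or by 0.68 with median scaling. PFKFB2 fell by 0.58 (adjusted p = 0.0216) against NP15, and PFKFB1 was called higher there (adjusted p = 0.0447) while well above background on 1 of 4 P18 arrays and 3 of 4 NP15 arrays (log2 change 1.06, and 0.57 with normexp). BSG, the partner protein of the lactate transporters, fell by 0.48 against P15 (adjusted p = 0.0191) and by 0.39 against NP15 (adjusted p = 0.0473), and both of its calls were lost with median scaling (adjusted p = 0.136 and 0.374). With the quantile method the PDP2 call against P15 was lost (adjusted p = 0.0528), and the PFKFB1 and PFKFB2 calls were lost with quantile scaling (adjusted p = 0.0896 and 0.0878) and with centring within rows (adjusted p = 0.0655 and 0.189).

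In gluconeogenesis, glycogen metabolism and the pentose phosphate pathway, 17 of 18 genes with a probe were kept. In P18 against P15, 2 rose and 1 fell (median 0.23), and in P18 against NP15, 3 rose and 2 fell (median 0.23). The shares called over all probes were 29% and 29.9%. GYG1, the glycogenin that primes glycogen chains, read -4.50, -4.46, -4.88 and -4.29 on the P18 arrays, against -3.76, -3.35, -3.67 and -3.77 on the P15 arrays and -3.52, -3.50, -3.41 and -3.05 on the NP15 arrays. It fell by 0.90 against P15 (SE 0.16, adjusted p = 0.00177) and by 1.17 against NP15 (SE 0.16, adjusted p = 0.000365). With normexp both calls held, with log2 changes of -0.54 and -0.73. PGD, an enzyme of the pentose phosphate pathway, rose by 0.33 against P15 (adjusted p = 0.0324), a call that was lost with quantile scaling (adjusted p = 0.107), and by 0.55 with median scaling. In P18 against NP15, G6PC1, a glucose 6-phosphatase, rose by 0.88 (adjusted p = 0.0117), or by 0.61 with normexp. Its NP15 values of -6.60 to -6.08 lay below -5.83, the mean over the P18 arrays of the dimmest signal well above background. In the same comparison PYGM, the muscle glycogen phosphorylase, rose by 0.50 (adjusted p = 0.0257), and RPIA, the ribose phosphate isomerase, was called lower (adjusted p = 0.0176). RPIA was well above background on 2 of 4 P18 and 4 of 4 NP15 arrays, so the size of its change is uncertain: its log2 change was -1.61 here and -0.44 with normexp (adjusted p = 0.0272). With median scaling 9 of the 17 were higher and 1 was lower in P18 against P15.

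The hypoxia-inducible factors are transcription factors that are known to raise many glycolytic genes and SLC2A1 when oxygen is low. Of 7 kept genes of that pathway, 1 rose and 2 fell in P18 against P15 (median -0.50), where 29% of all probes were called. In P18 against NP15, 3 fell (median -0.69), where 29.9% of all probes were called. HIF1A read -0.75, -0.74, -0.76 and -0.86 on the P18 arrays, against 0.60, 1.01, 0.90 and 0.88 on the P15 arrays and 1.23, 0.78, 0.84 and 0.97 on the NP15 arrays. All P18 arrays lay below all others, and HIF1A was 3.08-fold lower than in P15 (log2 change -1.62, SE 0.12, adjusted p = 1.98e-05) and 3.32-fold lower than in NP15 (log2 change -1.73, SE 0.12, adjusted p = 1.32e-05). EPAS1, the second such factor, known from endothelium, fell by 0.84 against P15 (adjusted p = 0.00477) and by 0.71 against NP15 (adjusted p = 0.0110). Its call against NP15 was lost with median scaling (adjusted p = 0.0628), whereas both HIF1A calls held with quantile and median scaling, with normexp and with centring within rows. HIF3A rose by 0.74 against P15 (adjusted p = 0.0442; 0.0580 with quantile scaling), with 3 of 4 P18 and 4 of 4 P15 arrays well above background. EGLN3, an oxygen-sensing hydroxylase, was called lower against NP15 (adjusted p = 0.0126), with 2 of 4 P18 and 4 of 4 NP15 arrays well above background. Its log2 change was -1.04 here and -0.30 with normexp, where the call was lost (adjusted p = 0.241).

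Of 15 kept genes that are used like GAPDH to scale expression, 3 were higher and 3 lower in P18 than in P15, where 29% of all probes were called. Against NP15, 2 were higher and 3 lower in P18, where 29.9% of all probes were called. The medians were 0.008 against P15 and -0.03 against NP15, beside -0.03 and -0.06 over all probes. With median scaling, 6 were higher and 3 lower in P18 than in P15. YWHAZ, an adaptor protein, fell by 1.20 against P15 (adjusted p = 0.000279) and TUBA1A, a tubulin, by 1.00 (adjusted p = 0.00273). HPRT1, a purine salvage enzyme, fell by 0.70 against P15 (adjusted p = 0.00510), and H2AZ1, a histone, rose by 0.98 (adjusted p = 0.0131). ACTB, PPIA, RPLP0, EEF1A1, SDHA and RPL19 were called in neither P18 comparison, with changes between -0.33 and 0.32.

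Some markers of cell types were also called in P18, where 29% of all probes were called against P15 and 29.9% against NP15. Fewer cells of a type cannot be told apart from less RNA per cell in whole tissue. Of 11 endothelial markers 4 fell against each day 15 group. The summed signal of all 11 over the percentile was 19.6 to 23.5 on the P18 arrays, 23.5 to 29.6 on the P15 arrays and 22.4 to 32.9 on the NP15 arrays. EGFL7 and ENG, called in neither comparison, made up most of that sum, with mean levels of 3.84 and 2.51. The 4 that fell, PECAM1, CDH5, VWF and ERG, had mean levels of -5.38 to -3.57, so the sum does not size their fall. VWF lost both calls with normexp (-0.07, adjusted p = 0.807 against P15, and -0.16, adjusted p = 0.524 against NP15). Its call against P15 was also lost with median scaling (adjusted p = 0.108) and with centring within rows (adjusted p = 0.0548). The calls of PECAM1, CDH5 and ERG held in these settings. Of 10 markers of fibroblasts, pericytes and smooth muscle 4 fell against each, and the sum was 66.6 to 84.1 on the P18 arrays, 90.3 to 103 on the P15 arrays and 91.0 to 100.4 on the NP15 arrays. Of 13 luteal markers, 2 rose and 2 fell against P15 and 1 rose and 4 fell against NP15, with sums of 417 to 521, 457 to 577 and 581 to 716 on the P18, P15 and NP15 arrays. STAR was saturated on 0 P18, 4 P15 and 4 NP15 arrays and HSD3B1 on 0 P18, 0 P15 and 4 NP15 arrays, so the day 15 sums are lower bounds. The other 11 luteal markers summed to 167 to 218 on the P18 arrays, 203 to 248 on the P15 arrays and 236 to 271 on the NP15 arrays. Myeloid markers (8 kept, 1 higher against each group) summed to 13.7 to 37.3 on the P18 arrays, 7.73 to 21.1 on the P15 arrays and 5.71 to 9.94 on the NP15 arrays. C1QB, a complement component, made up most of that sum. Without it the other 7 summed to 1.81 to 3.89 on the P18 arrays, 1.16 to 2.79 on the P15 arrays and 1.49 to 2.23 on the NP15 arrays, ranges that overlap. Lymphoid markers (13 kept, 1 higher and 1 lower against each group) summed to 0.65 to 4.54 on the P18 arrays, 0.77 to 1.39 on the P15 arrays and 0.78 to 1.79 on the NP15 arrays. MS4A1, called higher against P15, was well above background on 0 P18 and 1 P15 arrays, so its direction is uncertain. PTPRC, called lower against both, was so on 0 P18 arrays and on 4 arrays of each day 15 group. With normexp both PTPRC calls were lost (-0.37, adjusted p = 0.294 against P15, and -0.66, adjusted p = 0.0661 against NP15). Both held with quantile and median scaling. GZMB ranged from -5.71 to 1.07, the highest level that any of the 13 reached. Of the red cell and platelet markers (6 kept, 2 higher against P15 and 1 against NP15), which summed to 0.63 to 0.83 on the P18 arrays, 0.50 to 0.56 on the P15 arrays and 0.53 to 0.64 on the NP15 arrays, HBB and SLC4A1 were well above background on 0 arrays. The part of these cell types in the changes of GAPDH, LDHA and the other genes was not tested.

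Of the other glucose transporters, regulators, gluconeogenesis and related genes, hypoxia-inducible factor genes and scaling genes, 0 were called in P15 against NP15 in limma, where 0, 2, 2, 1 and 1 of them had an unadjusted p under 0.05. In P15 against NP15, 0 of the 5 probes other than the repeated GAPDH spots were called in limma, 1 of them had an unadjusted p under 0.05, and 1112 of all 12605 probes had one. The 2 further probes that touch this pathway fall outside the naming rule. A probe with the older symbol GAPD read 0.17, 0.07, 0.23 and -0.08 on the P18 arrays, against -0.01, 0.02, -0.22 and -0.22 on the P15 arrays and -0.07, -0.03, -0.08 and 0.45 on the NP15 arrays, and was not called (0.21 against P15, adjusted p = 0.285; 0.03 against NP15, adjusted p = 0.894). A probe described as similar to pyruvate kinase 3 read 1.20, 1.21, 1.08 and 1.24 on the P18 arrays, against 1.22, 1.12, 1.07 and 1.11 on the P15 arrays and 1.22, 1.40, 1.26 and 1.72 on the NP15 arrays, and was called in no comparison.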

How the data were processed

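RNA of 12 corpora lutea, 1 array each, was labelled with Cy3 from 400 ng of total RNA, per the labels' protocols. The deposited intensity values are the processed signals of Agilent Feature Extraction 9.5, per the submitters' processing notes. The deposited log2 table holds the same signals on a log2 scale less a constant per array close to log2 of its 75th percentile, with array medians of -3.32 to -2.99. From the deposited files, log2 of each processed signal was taken, and log2 of the 75th percentile over the array's 15208 non-control probes was subtracted. Spots marked by the software as non-uniform or as outliers were left out, and 12605 probes well above background on 3 or more of 4 arrays of a group were kept. Each probe was tested apart with limma 3.58.1 (lmFit and eBayes, R 4.3.3) over all 12 arrays, with Benjamini-Hochberg adjustment over all kept probes and a threshold of 0.05. The test was checked on simulated data. The number of arrays limits the precision. Gene symbols came from the array files and RefSeq accessions, and a list gene was read at its brightest kept probe. The genes described were those of the rule. From the other lists up to 4 called genes with the smallest p per comparison were named. HKDC1, BSG, PYGM, H2AZ1, the scaling genes without a call and the markers EGFL7, ENG and GZMB were named in addition, after their values were seen. A few results that the naming rule selects are not reported here. The members and lists were chosen with earlier results of these data known. Over the 3 comparisons, same-numbered arrays of 2 groups did not deviate together throughout, so replicate numbers were not used as pairs. In every group the replicate number is also the array's column on the slide. The alternatives were quantile and median scaling, normexp with an offset of 50, the deposited log2 table, other filters, centring within array rows, marked spots kept, 1 probe per gene, array weights, a replicate block, 2 groups alone, spots of one sequence averaged, and each array left out.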

Additional observations from a re-analysis of the deposited data

Results flagged for a closer look

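The mean of the 100 repeated GAPDH spots on NP15 array 4, 1.45, stood apart from the other NP15 arrays, which had 1.69 to 1.72. Its gap to the nearest array was 0.864 of the group's range, above Dixon's critical value for 4 samples. It was the 1 value of this kind among 18 groups of 4 values tested, where chance flags about 1 group in 20. On this array 12 of the 100 spots lay more than 0.5 below the array's median of 1.58. Of these spots 1 lay in row 1 and 11 lay in rows 20 to 122. Without this array the mean change of the spots was 0.71 in P18 against NP15 and -0.03 in P15 against NP15, and 99 spots were called in P18 against NP15.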

How the results depend on the processing

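Of 147 recomputed counts of called probes, 141 stayed within 1.5 times the reported count. With median scaling 1 of the 5 probes other than the repeated GAPDH spots was called in P18 against NP15, instead of 3. In P18 against P15, 4 of 5 were called with array weights and with the 2 groups alone, instead of 2, SLC2A1 and the probe named PGK1 being added. In P15 against NP15, 1 of 5 was called with array weights, the single GAPDH probe (0.37, adjusted p = 0.0470), and 0 of the 100 repeated spots were called after centring within rows, where each row's median change is removed by construction. Leaving out each array in turn gave 89 to 99 called spots in P18 against P15, 94 to 99 in P18 against NP15 and 2 to 2 in P15 against NP15, and 2 to 4, 2 to 3 and 0 to 0 of the 5 other probes. The mean change of the repeated spots was 0.57 with quantile scaling and 0.96 with median scaling in P18 against P15, and 1.01 with median scaling in P18 against NP15. The probe named PGK1 was called in P18 against P15 with quantile scaling (-0.53, adjusted p = 0.00892), normexp (adjusted p = 0.0448), array weights (adjusted p = 0.0340) and the 2 groups alone (adjusted p = 0.0466), and lost its call against NP15 with the 2 groups alone (adjusted p = 0.0627). Over all probes, 123 were called in P15 against NP15, 76 with normexp, 40 centred within rows, 214 with array weights, 65 with the 2 groups alone and 67 to 121 with an array left out, and without a filter 5506 were called in P18 against P15, instead of 3659. The higher share of the calls in P15 against NP15 was 40.7%, and 59.2% with normexp and 72.5% centred within rows. In P18 against NP15 it was 37.4%, and 49.3% centred within rows. Without a filter it was 63.3% in P18 against P15 and 56.8% in P18 against NP15. The cause of these differences was not tested. Same-numbered arrays correlated at -0.04 to 0.29 in their deviations, and not every array correlated best with its own number. In P15 against NP15, whose arrays share a slide, the same-numbered correlations were all positive, at 0.12, 0.16, 0.10 and 0.29. The replicate number is also the slide column, so replicate and column cannot be told apart. With the replicate number as a block, 92, 98 and 2 of the repeated spots and 2, 2 and 0 of the 5 other probes were called in the 3 comparisons, and 75 instead of 123 of all probes in P15 against NP15. With that block the probe named PGK1 lost its call against NP15 (adjusted p = 0.0535), and no other call among the 5 probes changed. The number of arrays, 4 per group, limits the precision throughout.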
